A study of Homo sapiens with 24 samples.

Results

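NES, VIM, GFAP, CHI3L1, SOX2, SOX9, TNC, S100B, OLIG2 and PROM1 are glial, neural stem and mesenchymal markers used to describe the state of glioblastoma cells. They were taken by name, as every gene spot that carries 1 of these symbols, and every probe was followed in both channels of the array. That gave 10 of 30982 gene names and 15 of 41000 probes. U87 MG, an established human glioblastoma line, was collected 24 h after proton therapy (PT) with 2 Gy or 10 Gy, and the Cy5-labelled RNA was hybridised against Cy3-labelled RNA of untreated cells (U87 2 Gy and U87 10 Gy). For U87 Si306 + 2 Gy, and likewise for U87 Si306 + 10 Gy, cells that also received 10 µM Si306, a tyrosine kinase inhibitor of SRC, were labelled with Cy5 and hybridised against cells given the same proton dose alone. The dyes were not exchanged in any configuration, and none held cells given Si306 without protons.

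NES (nestin) is an intermediate filament of neural precursors, SOX2 and SOX9 are transcription factors that keep neural stem and glial progenitor states, and PROM1 (CD133) is a surface protein used to sort stem-like glioma cells. GFAP and S100B mark astrocytes, and OLIG2 is a transcription factor of the oligodendrocyte lineage that many gliomas keep. VIM (vimentin), TNC (tenascin C, a matrix protein) and CHI3L1 (a secreted chitinase-like glycoprotein) are markers of the mesenchymal state of glioblastoma, which is known for invasion and for resistance to radiation.

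The 24 samples were scans of 8 arrays on 2 slides, each array scanned 3 times, so n is 2 arrays per configuration and the number of arrays limits the precision. The labels number 6 biological replicates per configuration, but the headers show that these are repeated scans of the 8 arrays. Nothing says that the 2 arrays of a configuration came from separate cultures, so the p-values measure only the spread between arrays. The scan of U87 2 Gy replicate 5 differed from the other scans of its array by an SD of 0.0772 (log2 ratio over probes) and from the scans of its label by 0.178. For U87 10 Gy replicate 2 these SDs were 0.0757 and 0.171. The headers place both scans on arrays of the other dose, and they were left out, which left 22 scans. Slide 1 held U87 2 Gy and U87 10 Gy and slide 2 both configurations with Si306, so configurations with and without Si306 cannot be told apart from the slides, while the effect of adding Si306 was measured within slide 2. Between 57.3% and 66.5% of gene spots were well above background in Cy3, and between 63.4% and 74.7% in Cy5. No spot of a marker was saturated.

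The slides stood apart, also for RNA with the same label. RNA labelled U87 2 Gy was in Cy5 on slide 1 and in Cy3 on slide 2, and 30% of the 21288 probes well above background in both differed by over 2-fold (SD 1.16 in log2 level). For RNA labelled U87 10 Gy this was 30.2% of 21808 probes (SD 1.19). Within the arrays of slide 1, Cy5 and Cy3 differed by over 2-fold for 0.917% and 1.23% of the same probes (SD 0.30 and 0.33). The comparison between slides crosses the dyes. In Cy3 on both slides, which sets untreated RNA against PT RNA, 27.5% and 27.4% differed by over 2-fold.

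All 10 markers had probes, but not all were detected. VIM, TNC, NES and SOX9 were well above background in both channels of all 8 arrays, and so was 1 of the 3 GFAP probes (A_24_P31165). GFAP probes A_23_P66593 and A_24_P59786 were at background in both channels of every array, so the astrocytic label rests on a single GFAP probe. The PROM1 probe was also at background everywhere, with signals of 64.1 to 79.5 in Cy3 and 63 to 87.3 in Cy5. S100B, with signals of 68.3 to 101, was well above background only in Cy5 of 1 array of U87 Si306 + 10 Gy. PROM1 and S100B therefore entered no test, and 8 markers with 11 probes did.

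**Figure D1:**
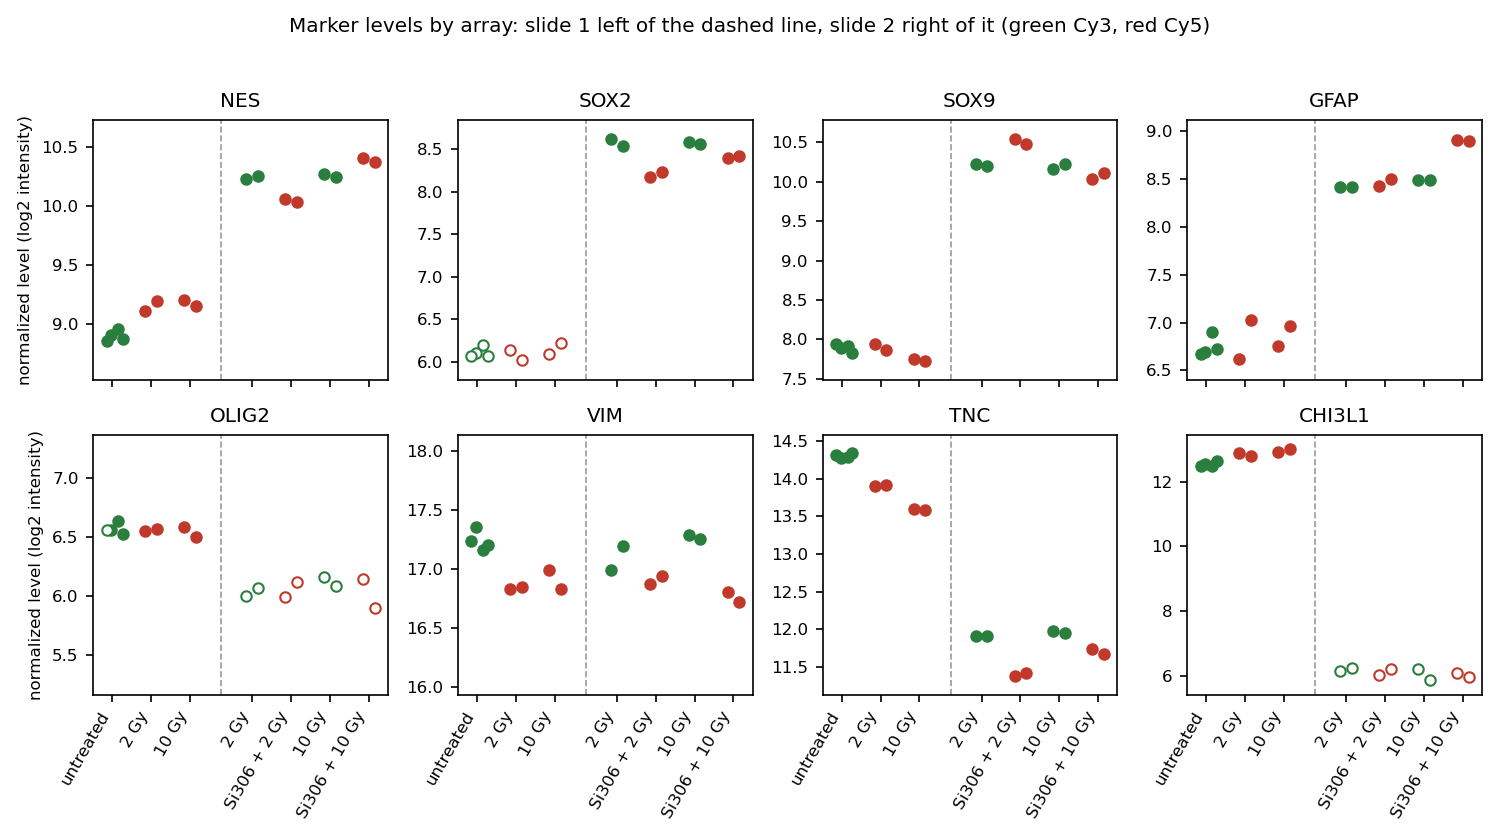
Normalized log2 level of the 8 tested markers (probe of the test) in every array, Cy3 in green and Cy5 in red, with slide 1 left of the dashed line and slide 2 right of it; open circles are not well above background. CHI3L1 was at background on slide 2 and SOX2 on slide 1, while SOX9, GFAP and NES were higher on slide 2 and TNC on slide 1 for RNA with the same label.

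CHI3L1 showed the widest gap of the 10 markers between the slides. Its probe A_23_P137665 gave signals of 2800 to 4320 in Cy3 and 9710 to 12800 in Cy5 on slide 1, and of 59.9 to 82.9 in either dye on slide 2. RNA labelled U87 2 Gy was at least 98-fold higher on slide 1, and RNA labelled U87 10 Gy at least 104-fold. The second probe, A_24_P274111, was at least 6.19-fold and 5.63-fold higher there. TNC was also higher on slide 1, by 3.98-fold and 3.1-fold, and OLIG2 by at least 1.35-fold and 1.22-fold.

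The opposite order was seen for the stem cell factors. SOX2 probe A_23_P401055 was at least 5.32-fold higher on slide 2 for RNA labelled U87 2 Gy and at least 5.14-fold for RNA labelled U87 10 Gy, with signals of 68 to 74.7 on slide 1 and 245 to 652 on slide 2. The other SOX2 probe, A_24_P379969, differed less, by at least 1.57-fold and, with 1 of its 2 slide 1 arrays at background, by about 1.35-fold. SOX9 was 4.98-fold and 5.47-fold higher on slide 2, GFAP 3.03-fold and 3.1-fold, and NES 2.12-fold and 2.11-fold. VIM differed least of the markers detected on both slides, by 1.19-fold and 1.28-fold at probe A_23_P161194. Of all 41000 probes, 20489 (50%) were well above background on every array of both slides, 1025 (2.5%) on every array of slide 1 and none of slide 2, and 618 (1.51%) the other way round. Both CHI3L1 probes were among the 1025 and SOX2 probe A_23_P401055 among the 618. CHI3L1 by both probes, SOX2 by A_23_P401055, SOX9, TNC, GFAP and NES thus differed between the slides by more than the 1.83-fold that was the largest change of a tested marker probe within a slide after the curve over intensity described below. The source of these gaps was not tested, and among all probes compared 30% and 30.2% also differed by over 2-fold. Where a marker is lower, fewer cells that express it and less RNA per cell cannot be told apart either.

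**Figure D2:**
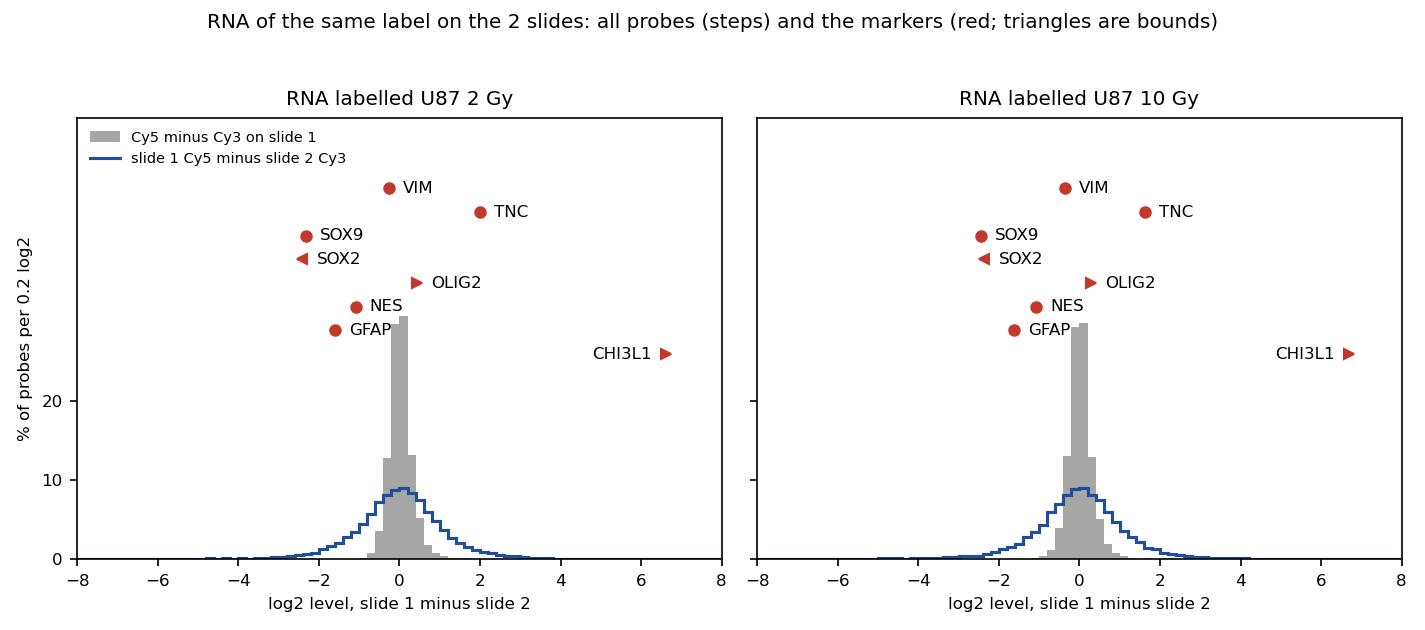
Difference in log2 level between slide 1 (Cy5) and slide 2 (Cy3) for RNA of the same label, over all probes well above background (line, percent of probes per bin of 0.2), with the difference between dyes on slide 1 in grey. Red marks are the 8 tested markers at heights without meaning, and triangles are bounds; CHI3L1 lies beyond 6 on the slide 1 side, while SOX2 and SOX9 lie beyond -2 on the slide 2 side.

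The second probes of CHI3L1 and SOX2 gave smaller gaps between the slides than the first, and the 2 VIM probes gave unequal ratios, so the probes of these genes that lie in coding sequence are printed, with the part of the transcript each reads. Each has 60 bases, given 5′ to 3′ with positions in hg17: CHI3L1 at chr1:199883610-199884457, minus strand, across 848 bases of genome, SOX2 at chr3:182913448-182913507, plus strand, and VIM at chr10:17317191-17317250 and at chr10:17318353-17319262, plus strand, the latter across 910 bases.
CHI3L1 A_24_P274111: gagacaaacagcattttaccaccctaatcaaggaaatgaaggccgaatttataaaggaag
SOX2 A_24_P379969: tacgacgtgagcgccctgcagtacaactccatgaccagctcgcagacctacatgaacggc
VIM A_23_P161194: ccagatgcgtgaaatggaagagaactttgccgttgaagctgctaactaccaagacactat
VIM A_23_P161190: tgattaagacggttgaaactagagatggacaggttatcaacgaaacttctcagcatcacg

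Within a configuration dye and treatment cannot be told apart, and the directions of several markers depend on how the dyes are balanced. The ratios here were balanced by a curve over intensity. With each scan only shifted to a median of 0 over its spots (median centring), the median of all genes moved from 0.021, 0.015, 0.038 and 0.026 to 0.27, 0.22, 0.43 and 0.26 in the 4 configurations. Values with median centring are therefore given relative to these medians, unless named as unadjusted. CHI3L1 and NES after PT, TNC in U87 10 Gy, SOX9 in U87 Si306 + 2 Gy, and GFAP and NES in U87 Si306 + 10 Gy had 1 direction under both ways of balancing, before and after allowing for the median. Of the other values that passed the test, SOX9 in U87 10 Gy, SOX2 at both doses with Si306 and TNC in U87 Si306 + 2 Gy kept theirs only relative to the median. VIM kept it in no configuration.

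The first comparisons ask how PT at 2 Gy and at 10 Gy changed the markers against untreated cells. Of the 8 tested, 4 passed an adjusted p of 0.05 in limma in U87 2 Gy, where 57.0% of all 22915 genes did: CHI3L1 and NES were higher (32.1% of all genes were), and TNC and VIM lower (24.9%), both of which turned with median centring. In U87 10 Gy 6 passed, against 57.3% of genes, with CHI3L1, NES and GFAP higher (31.1%) and TNC, VIM and SOX9 lower (26.2%), of which median centring turned GFAP and VIM, and SOX9 where unadjusted. The next comparisons ask what Si306 adds at each dose. In U87 Si306 + 2 Gy 5 passed, against 66.4%, with SOX9 higher (38.5%) and NES, SOX2, TNC and VIM lower (27.8%), where unadjusted median centring turned all 4 of the latter. In U87 Si306 + 10 Gy 6 passed, against 62.2%, with GFAP and NES higher (35.1%) and SOX2, SOX9, TNC and VIM lower (27.1%), where unadjusted median centring again turned all 4 of the latter. Of the markers detected in a configuration, 4 of 7, 6 of 7, 5 of 6 and 6 of 6 passed in that order, and the counts are a description that sets nothing apart from all genes. The median log2 ratio of the 8 markers was -0.036, 0.038, -0.14 and -0.11 in the 4 configurations in that order, beside the medians of all genes above, with SOX2 at background on slide 1 and CHI3L1 and OLIG2 on slide 2. No marker was a DEG, which took 2-fold beside the adjusted p, where 166 (0.724%), 221 (0.964%), 166 (0.725%) and 85 (0.371%) of all genes were. After the curve the largest change of any marker probe was 1.83-fold, for CHI3L1 in U87 2 Gy, while unadjusted median centring took SOX9 and VIM in U87 Si306 + 2 Gy past 2-fold.

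**Figure D3:**
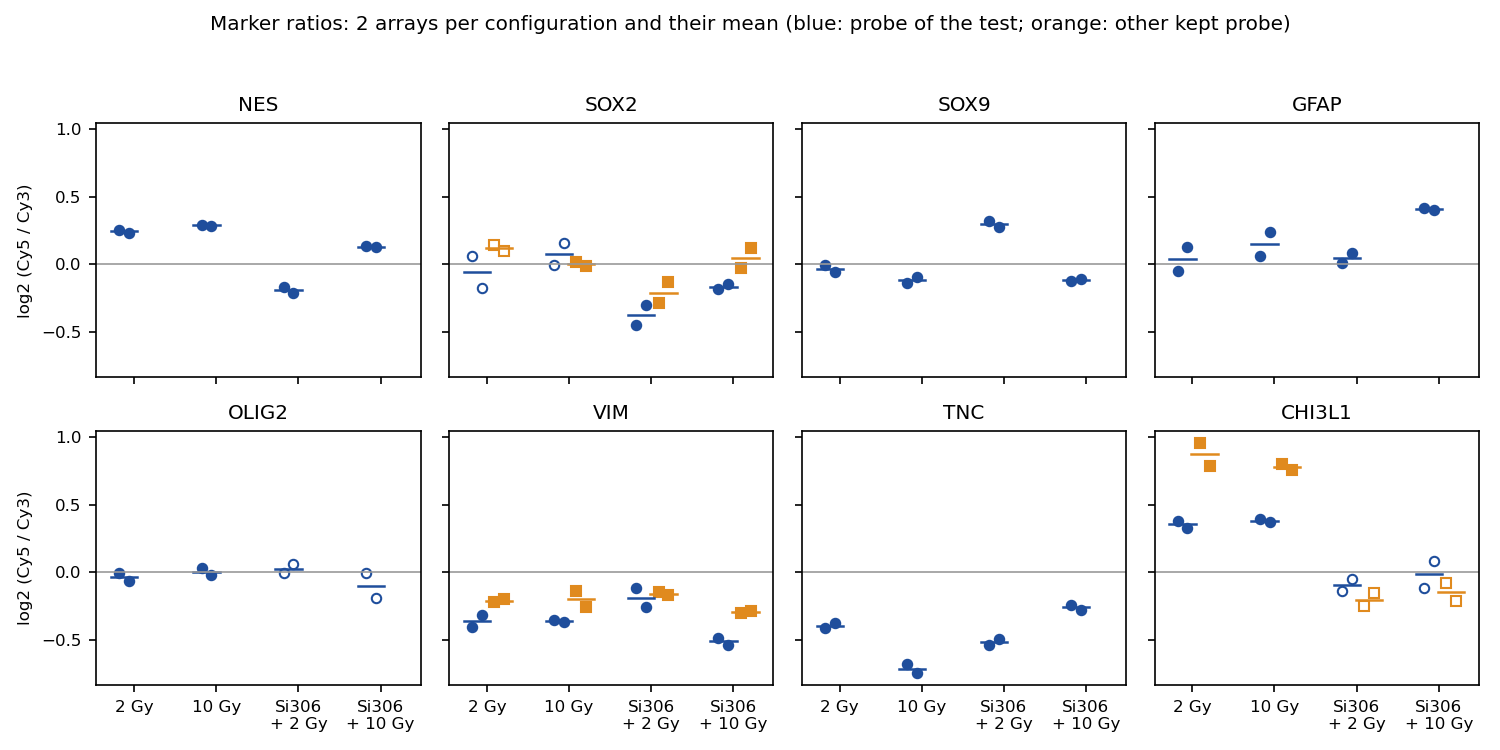
Log2 ratio (Cy5/Cy3) of the 8 tested markers in the 2 arrays of each configuration, with their mean as a line; blue is the probe of the test, orange another kept probe, and open marks are not well above background in either channel. TNC and VIM lie under 0 in all 4 configurations, but unadjusted median centring turns VIM positive in all 4 and TNC in all but U87 10 Gy, while CHI3L1 and NES lie over 0 under PT with both methods.

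NES, the filament of neural precursors, rose after PT at both doses. Its log2 ratio was 0.26 and 0.23 on the arrays of U87 2 Gy and 0.29 and 0.28 on those of U87 10 Gy. With Si306 it was -0.17 and -0.22 at 2 Gy, and 0.13 and 0.13 at 10 Gy. The ratios of the PT arrays, taken against untreated RNA, thus lay above those of every Si306 array. Those of the Si306 arrays are against irradiated RNA on another slide, so this does not order the levels. The Si306 arrays lay on opposite sides of 0 by dose. The limma means were 0.24 ± 0.031 (SE, n = 2, adjusted p = 5.5e-05) and 0.29 ± 0.031 (adjusted p = 1.45e-05) under PT. With Si306 they were -0.19 ± 0.031 (adjusted p = 0.000251) at 2 Gy and 0.13 ± 0.031 (adjusted p = 0.00383) at 10 Gy. Median centring gave 0.44, 0.47, 0.19 and 0.42, so the fall with Si306 at 2 Gy depended on the balance of the dyes. The rise with Si306 at 10 Gy was 0.13 without array 1 and missed the threshold there (adjusted p = 0.0515, where the 26 alternatives ran from 1.43e-12 to 0.0515).

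On slide 1 the mean log2 level of NES was 8.91 and 8.89 in untreated cells, 9.15 in U87 2 Gy and 9.18 in U87 10 Gy, where the SD over arrays was between 0.028 and 0.0732. The irradiated RNA lay above the untreated RNA on each array, and the doses did not differ beyond their spread. On slide 2 it was 10.24 in U87 2 Gy and 10.26 in U87 10 Gy, against 10.04 with Si306 at 2 Gy and 10.39 with Si306 at 10 Gy (SD 0.013 to 0.0244). There the irradiated RNA of both doses lay together, with Si306 + 2 Gy under them and Si306 + 10 Gy over them.

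SOX9, which acts early in gliogenesis, separated the doses in the presence of Si306. The log2 ratio was 0.32 and 0.28 on the arrays of U87 Si306 + 2 Gy, and -0.13 and -0.11 on those of U87 Si306 + 10 Gy. After PT alone it was -0.0071 and -0.060 at 2 Gy, and -0.14 and -0.094 at 10 Gy. Only the arrays of U87 Si306 + 2 Gy lay above 0. Their mean was 0.30 ± 0.0326 (adjusted p = 1.39e-05, limma), and median centring gave 0.70. The falls at 10 Gy were small: -0.12 ± 0.0326 (adjusted p = 0.00976) after PT and -0.12 ± 0.0326 (adjusted p = 0.00843) with Si306. The value after PT passed in 22 of 26 alternatives (adjusted p from 1.36e-05 to 0.127, limma). These count median centring, where the unadjusted 0.13 passed as a rise (adjusted p = 0.0329), while relative to all genes it was -0.092. It did not pass without array 1 of U87 10 Gy (-0.094), with every scan by its label, or with scan 1 or scan 2 alone. The fall with Si306 was not past the threshold without either of its arrays (-0.11 without array 1 and -0.13 without array 2). It turned to 0.16 with median centring (0.42 unadjusted). That unadjusted rise gave the lowest adjusted p of 26 alternatives, which ran from 5.22e-08 to 0.0889 (limma).

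SOX2, a factor of neural stem cells, was at background on slide 1, but for 1 Cy5 channel of probe A_24_P379969 in U87 10 Gy, and was read on slide 2. In U87 Si306 + 2 Gy probe A_23_P401055 gave -0.45 and -0.30, and A_24_P379969 gave -0.29 and -0.14. In U87 Si306 + 10 Gy they gave -0.19 and -0.15, and -0.032 and 0.12. Both probes were thus lower with Si306 at 2 Gy, on both arrays, while at 10 Gy the arrays of A_24_P379969 lay on either side of 0. With unadjusted median centring A_23_P401055 turned positive at both doses. At 2 Gy the mean was -0.38 ± 0.0587 (1.3-fold lower, adjusted p = 0.000198) for A_23_P401055. Relative to all genes median centring gave -0.30 for it (0.14 unadjusted, for which the adjusted p was 0.0619, the highest of 26 alternatives, of which the lowest was 5.89e-09). At 10 Gy the mean was -0.17 ± 0.0587 (adjusted p = 0.0291), and median centring gave -0.058 (0.20 unadjusted). This value passed in 18 of 26 alternatives (adjusted p from 0.000123 to 0.331, limma). These count median centring, where the unadjusted 0.20 passed as a rise (adjusted p = 0.00885). It did not pass without either array (-0.15 without array 1 and -0.19 without array 2), with the mean of both probes (-0.061), the log ratio of the scanner software (-0.24) or of the series matrix, an offset of 10, every scan by its label, or scan 2 alone.

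GFAP, the astrocyte filament, rose with Si306 at 10 Gy. Probe A_24_P31165 gave 0.41 and 0.40 on the arrays of U87 Si306 + 10 Gy, and 0.01 and 0.081 on those of U87 Si306 + 2 Gy. After PT it gave -0.052 and 0.13 at 2 Gy, and 0.061 and 0.24 at 10 Gy. The ratios of U87 Si306 + 10 Gy lay above all others, although those after PT are against untreated RNA. The arrays of each PT configuration overlapped those of the other. The mean with Si306 at 10 Gy was 0.41 ± 0.0501 (1.33-fold, adjusted p = 3.87e-05, limma), and median centring gave 0.55. At 10 Gy of PT the mean of 0.15 ± 0.0501 (adjusted p = 0.0242) passed in 19 of 26 alternatives (adjusted p from 0.00339 to 0.468). It did not pass without array 2 (0.061), with median centring (0.092 unadjusted, -0.13 relative), an offset of 10, a GC curve, every scan by its label, or scan 1 or scan 2 alone. The signals behind these values were 92.4 to 154 on slide 1 and 227 to 785 on slide 2.

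OLIG2, the oligodendrocyte lineage factor, was near background. On slide 1 its signals were 86.9 to 92.8 in Cy3 and 103 to 123 in Cy5, and on slide 2 neither channel was well above background on any array. The mean log2 ratio was -0.038 ± 0.0437 (adjusted p = 0.488) in U87 2 Gy and 0.0011 ± 0.0437 (adjusted p = 0.985) in U87 10 Gy. Median centring gave -0.52 and -0.40.

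TNC, the matrix protein of the mesenchymal state, had the largest fall of the markers after the curve over intensity, while with median centring OLIG2 lay lower. The log2 ratio was -0.42 and -0.37 on the arrays of U87 2 Gy, and -0.68 and -0.75 on those of U87 10 Gy. With Si306 it was -0.54 and -0.50 at 2 Gy, and -0.24 and -0.28 at 10 Gy. All 8 arrays lay under 0, and the ratios of U87 10 Gy, which are against untreated RNA, lay lowest. The fall after 10 Gy of PT was 1.64-fold, a mean of -0.71 ± 0.0339 (adjusted p = 3e-08, limma), and only 2.64% of genes changed more. At 2 Gy the mean was -0.40 ± 0.0339 (adjusted p = 2.84e-06). Si306 gave -0.52 ± 0.0339 (adjusted p = 2.84e-07) at 2 Gy and -0.26 ± 0.0339 (adjusted p = 5.75e-05) at 10 Gy. With median centring the fall after 10 Gy was -0.36, while 2 Gy gave 0.032 and Si306 -0.0082 and 0.11, so that of the 4 falls that after 10 Gy of PT kept its direction, while the others were near 0 or above it (0.30, 0.42 and 0.37 unadjusted).

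After the curve over intensity the mean log2 level of TNC on slide 1 was 14.30 and 14.31 in untreated RNA, 13.91 in U87 2 Gy and 13.59 in U87 10 Gy, with SDs of 0.0093 to 0.0402. The doses, both in Cy5, were apart by more than that spread, while the step from untreated RNA in Cy3 to 2 Gy in Cy5 turned with median centring. On slide 2 it was 11.91 in U87 2 Gy and 11.96 in U87 10 Gy, against 11.40 with Si306 at 2 Gy and 11.70 with Si306 at 10 Gy (SD 0.0013 to 0.0463). The Cy3 levels of both doses were thus close on slide 2, with 10 Gy slightly the higher. On slide 1 in Cy5 the same labels had differed by more, in the other order.

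VIM, the filament of mesenchymal cells, gave signals of 47000 to 108000 in Cy3 and 180000 to 288000 in Cy5 at probe A_23_P161194. The log2 ratio was -0.40 and -0.31 on the arrays of U87 2 Gy, and -0.36 and -0.37 on those of U87 10 Gy. With Si306 it was -0.12 and -0.26 at 2 Gy, and -0.48 and -0.54 at 10 Gy. All 8 arrays lay under 0 after the curve over intensity, although the unadjusted Cy5 signal was the higher one on each array. The means were -0.36 ± 0.0402 (adjusted p = 2.13e-05), -0.36 ± 0.0402 (adjusted p = 1.73e-05), -0.19 ± 0.0402 (adjusted p = 0.00171) and -0.51 ± 0.0402 (adjusted p = 1.38e-06). Median centring turned them to 0.18, 0.089, 0.89 and 0.28, so that each direction of VIM within a configuration depended on the balance of the dyes. The second VIM probe, A_23_P161190, gave -0.21, -0.20, -0.16 and -0.30 (± 0.0357) after the curve. At A_23_P161194 the value in U87 Si306 + 2 Gy was -0.12 both without array 2 and with scan 2 of the slide alone and missed the threshold in both. Its adjusted p ran from 3.72e-19 to 0.101 over 26 alternatives (limma). The lowest came with median centring, where the unadjusted value was a rise of 1.32.

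CHI3L1, the secreted glycoprotein, rose after PT at both doses and by both probes. Probe A_23_P137665 gave 0.38 and 0.33 on the arrays of U87 2 Gy, and 0.39 and 0.37 on those of U87 10 Gy. Probe A_24_P274111 gave 0.96 and 0.79, and 0.80 and 0.76. Every array lay above 0, and the second probe lay above the first on each. The means of the first were 0.35 ± 0.0454 (1.28-fold, adjusted p = 6.01e-05) and 0.38 ± 0.0454 (1.3-fold, adjusted p = 3.16e-05), and those of the second, tested over probes, 0.87 ± 0.0471 (1.83-fold, adjusted p = 7.82e-08) and 0.78 ± 0.0471 (1.72-fold, adjusted p = 1.41e-07). Median centring gave 0.73 and 0.69 for the first. On slide 2 both channels were at background for both probes, so what Si306 did to CHI3L1 was not detectable there.

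CHI3L1, TNC and VIM carry the mesenchymal label, and the 250 bases before their starts are shown because CHI3L1 had the widest gap between slides and TNC and VIM fell together after the curve over intensity. RefSeq promoters (GRCh38.p14), with a single record for each gene, were examined for 6 of the 10 markers: CHI3L1, NES, PROM1, SOX2, TNC and VIM. All 10 have RefSeq entries, and the promoters of the others were not examined. Motifs of AP-1 (TGANTCA, in 6.57% of 35116 promoters of that length), STAT (TTCNNNGAA, 6.57%) and the letters TATAAA of the TATA box (10.7%) were searched on both strands. Of the 6, CHI3L1 alone held one of these strings, TATAAA, shown in capitals, and other forms of the TATA box were not searched. The sequences are from chr1:203186705-203186954 (minus strand), chr9:115118158-115118407 (minus strand) and chr10:17227991-17228240 (plus strand).
CHI3L1: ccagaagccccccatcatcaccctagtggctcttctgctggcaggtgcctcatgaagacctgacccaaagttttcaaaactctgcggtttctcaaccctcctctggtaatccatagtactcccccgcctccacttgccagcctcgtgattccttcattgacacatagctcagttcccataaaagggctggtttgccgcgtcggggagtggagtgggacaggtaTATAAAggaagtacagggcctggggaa
TNC: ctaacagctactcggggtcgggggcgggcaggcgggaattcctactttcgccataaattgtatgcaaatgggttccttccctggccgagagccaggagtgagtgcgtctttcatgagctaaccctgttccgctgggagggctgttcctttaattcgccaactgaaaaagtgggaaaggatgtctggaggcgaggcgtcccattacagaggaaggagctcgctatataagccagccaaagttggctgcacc
VIM: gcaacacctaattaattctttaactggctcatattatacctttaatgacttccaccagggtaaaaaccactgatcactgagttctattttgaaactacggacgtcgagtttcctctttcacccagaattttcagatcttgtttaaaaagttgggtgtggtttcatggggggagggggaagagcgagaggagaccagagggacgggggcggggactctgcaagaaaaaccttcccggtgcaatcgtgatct

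Whether the response depended on dose was asked by the difference between the arrays of 10 Gy and 2 Gy on 1 slide, in which a constant effect of the dyes on a probe cancels. On each slide the arrays of 2 Gy were at positions 1 and 4 and those of 10 Gy at positions 2 and 3. Position and dose therefore cannot be told apart on either slide. Of the 8 markers, of which SOX2 was at background on slide 1 at the probe of the test, 1 differed after PT alone. Of all 22914 genes 21.0% did (higher at 10 Gy for 9.86% and lower for 11.1%). That marker was TNC, lower at 10 Gy by a log2 difference of -0.32 ± 0.0479 (1.25-fold, n = 4 arrays, adjusted p = 0.00117, limma). It was -0.31 to -0.29 within the scans 1, 2 and 3 of the slide, and 5.11% of genes differed by more. It missed the threshold with scan 1 of the slide alone (-0.29), and when the 2 scans with the other dose on their label were used under that label, where it was -0.11 (adjusted p from 7.59e-08 to 0.996 over 26 alternatives). Used by their array, they left it past the threshold. RNA with the same labels in Cy3 on slide 2 gave mean log2 levels of TNC of 11.91 for 2 Gy and 11.96 for 10 Gy (SD 0.0013 and 0.0194). The lower level at 10 Gy was thus not seen there. NES, VIM, CHI3L1, GFAP, SOX9 and OLIG2 differed by -0.084 to 0.11 between the doses of PT and did not pass the test, which does not show that they were equal. Among them SOX9 passed in 4 of 26 alternatives, with values from -0.17 to -0.032 (adjusted p from 0.00872 to 0.996, limma), and the others in none.

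With Si306 the arrays of 10 Gy and 2 Gy differed for 5 of the 8 markers, where 22.6% of all genes differed (higher at 10 Gy for 10.1% and lower for 12.5%). CHI3L1 and OLIG2 were at background in both channels of these arrays. SOX9 was lower at 10 Gy by -0.42 ± 0.0461 (1.33-fold, n = 4, adjusted p = 0.000191, limma) and VIM by -0.32 ± 0.0569 (adjusted p = 0.0031). GFAP was higher by 0.36 ± 0.0708 (adjusted p = 0.00536), NES by 0.32 ± 0.0439 (adjusted p = 0.000713) and TNC by 0.26 ± 0.0479 (adjusted p = 0.00417). SOX9 and VIM kept their direction and passed under every alternative. Part of the VIM difference lay in Cy3, which held RNA without Si306. At A_23_P161194 the mean log2 level there was 17.09 at 2 Gy and 17.27 at 10 Gy (SD 0.1484 and 0.0239). In Cy5, with Si306, it was 16.90 and 16.76 (SD 0.0499 and 0.0617). GFAP kept its direction, but missed the threshold with the log ratio of the scanner software or of the series matrix (0.45 with either), with an offset of 10 (0.42) and with every scan by its label (0.36), and its adjusted p ran from 9.08e-07 to 0.0906 over 26 alternatives. TNC also missed it with every scan by its label. Median centring moved the median of all genes to -0.13 and gave, relative to it, 0.19 for NES (0.060 unadjusted, for which the adjusted p was 0.528, over 26 alternatives from 1.91e-10) and 0.073 for TNC (-0.058 unadjusted, for which the adjusted p was 0.556, over 26 alternatives from 3.13e-07), with -0.58 for SOX9, -0.66 for VIM and 0.36 for GFAP. Of all genes, 2.17% differed by more than SOX9 and 3.29% by more than GFAP.

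The second probes bear on 2 of these differences. VIM probe A_23_P161190 differed between the doses of Si306 by -0.14 ± 0.0504, short of the threshold (adjusted p = 0.0789). SOX2 differed by 0.21 ± 0.0831 at A_23_P401055 (adjusted p = 0.0961) and by 0.26 ± 0.0644 at A_24_P379969 (adjusted p = 0.0178). With the processing used here the fall of SOX2 with Si306 was thus not shown to differ between the doses by the probe of the test, and differed by the other. Over 26 alternatives the difference for SOX2 as a gene ran from 0.064 to 0.30 and passed in 7 (adjusted p from 0.000812 to 0.582, limma).

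**Figure D4:**
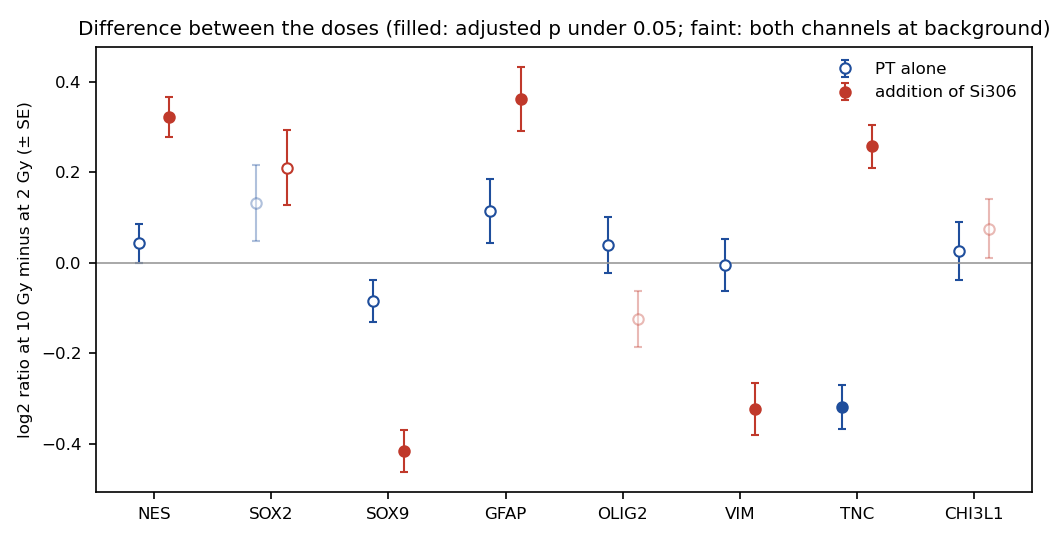
Difference in log2 ratio between 10 Gy and 2 Gy (mean ± SE, 4 arrays) for the 8 tested markers after PT alone (blue) and for the addition of Si306 (red); filled points passed an adjusted p of 0.05 and faint points were at background in both channels. TNC was lower at 10 Gy after PT, and with Si306 NES, GFAP and TNC were higher and SOX9 and VIM lower at 10 Gy; with median centring TNC turns to -0.058 (unadjusted) in the Si306 comparison.

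Among 21283 other genes with a value on all 8 arrays, those nearest to NES by Euclidean distance of the log2 ratios were BAPX1 (now NKX3-2, distance 0.108), C22orf9 (now KIAA0930, 0.124) and CXorf6 (now MAMLD1, 0.138). BAPX1 had means of 0.25, 0.28, -0.19 and 0.15 in the 4 configurations. Among the markers detected on both slides, the range of the 4 means was 0.48 for NES, 0.45 for TNC, 0.42 for SOX9, 0.37 for GFAP and 0.32 for VIM.

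Genes of the same lineages were counted from lists, some of which hold the markers too, in the order U87 2 Gy, U87 10 Gy, U87 Si306 + 2 Gy, then U87 Si306 + 10 Gy. Of all genes 32.1%, 31.1%, 38.5% and 35.1% were higher in that order, and 24.9%, 26.2%, 27.8% and 27.1% lower. In most lists 1 or 2 of the genes counted in some configuration were at background there, TWIST2, SNAP25, ELAVL4, TEK, CDH5 and CLDN5 among them. The counts given with median centring are unadjusted, and of all genes that passed with it 69.5%, 70.2%, 70.8% and 73.2% were higher, against 56.3%, 54.2%, 58.1% and 56.5% after the curve. More genes also passed with it. Before adjustment for multiple tests 19687, 18980, 20608 and 18832 of all genes had a p under 0.05 (limma), against 14029, 14171, 15885 and 15144 after the curve. Of 12 tested astrocyte genes 5, 6, 5 and 5 were higher and 0, 1, 3 and 3 lower. CLU, a secreted chaperone, rose by 0.94 ± 0.042 and 0.87 ± 0.042 after PT and was at background in nearly every channel of slide 2, as CHI3L1 was in all, and ALDH1L1, a folate enzyme, rose by 0.80 ± 0.0519 with Si306 at 10 Gy, as GFAP did. GJA1, the gap junction protein of astrocytes, rose after PT by 0.56 ± 0.0336 and 0.49 ± 0.0336, was 0.12 ± 0.0336 with Si306 at 2 Gy (-0.035 with the mean of its probes and 0.088, short of the threshold, without array 1) and -0.25 ± 0.0336 with Si306 at 10 Gy (0.30 with unadjusted median centring). Of 15 neural stem and radial glia genes, NES, SOX2 and SOX9 among them, 6, 3, 3 and 4 were higher and 1, 5, 6 and 6 lower. HES1, a target of Notch, rose at 2 Gy (0.30 ± 0.0318) and fell at 10 Gy of PT (-0.57 ± 0.0318), a difference of -0.87 (adjusted p = 3.44e-06). With every scan by its label HES1 passed in neither configuration, and the difference was -0.30 (adjusted p = 0.996). PAX6, a transcription factor of radial glia, fell after PT by -0.23 ± 0.0335 and -0.25 ± 0.0335, was -0.034 ± 0.0335 with Si306 at 2 Gy, short of the threshold, and rose by 0.62 ± 0.0335 with Si306 at 10 Gy. Of 9 oligodendrocyte lineage and proneural genes 5, 2, 4 and 3 were higher and 0, 0, 2 and 3 lower, with CSPG4 (NG2) higher in all 4 at 0.35, 0.36, 0.31 and 0.46 (± 0.0393). PDGFRA, a growth factor receptor of that lineage, was lower with Si306, at -0.60 ± 0.0455 at 2 Gy and -0.71 ± 0.0643 (1 array) at 10 Gy, where the mean of its probes was -0.047 and did not pass. Median centring changed the oligodendrocyte and proneural counts to 3, 3, 4 and 4 higher and 5, 4, 4 and 4 lower. It changed the astrocyte counts to 7, 6, 5 and 7 higher and 2, 2, 4 and 4 lower, and the neural stem counts to 8, 4, 10 and 10 higher and 7, 7, 4 and 4 lower.

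The mesenchymal list, with CHI3L1, VIM and TNC, had 22 tested genes, of which 8, 9, 8 and 9 were higher and 7, 9, 8 and 5 lower. Like VIM, it leaned on the balance of the dyes, since median centring called 22, 19, 19 and 18 higher and 0, 1, 1 and 2 lower. CEBPD, a transcription factor of the mesenchymal programme, rose with Si306 by 0.84 ± 0.0322 and 0.99 ± 0.0322 (1.79-fold and 1.99-fold). PLAUR, the urokinase receptor, fell by -0.77 ± 0.0412 and -0.87 ± 0.0412 (1.71-fold and 1.83-fold) with Si306, where unadjusted median centring gave 0.09 at 2 Gy. Of 6 transcription factors and cadherins of the epithelial to mesenchymal transition 2, 0, 2 and 4 were higher and 2, 3, 1 and 1 lower, against 4, 2, 3 and 3 higher and 0, 0, 3 and 3 lower with median centring, and the counts with Si306 hold TWIST2 at background. Among them TWIST1 rose by 0.45 ± 0.0306 and 0.40 ± 0.0306 with Si306 (the latter 0.058 and not past the threshold with the mean of its probes), and its fall of -0.36 ± 0.0306 after 10 Gy of PT turned to 0.13 with unadjusted median centring. Of 11 intermediate filament genes, which include NES, VIM and GFAP, 2, 3, 4 and 4 were higher and 5, 6, 5 and 3 lower, and with median centring 6, 5, 8 and 8 higher and 3, 3, 2 and 2 lower. LMNB1, a nuclear lamin, fell after PT by -0.16 ± 0.0391 and -0.22 ± 0.0391 and rose with Si306 by 0.55 ± 0.0391 and 0.26 ± 0.0391, of which the fall in U87 2 Gy was -0.12 and short of the threshold without array 1, and that in U87 10 Gy -0.12 and short of it with scan 1 of the slide alone.

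Lists of neuron, microglia and endothelium genes stand for cell types that a U87 MG culture is not known to hold. Of 11 neuron genes 3, 2, 4 and 3 were higher and 4, 3, 3 and 5 lower (with median centring 5, 5, 6 and 6 higher and 5, 5, 4 and 5 lower). MAP2, a protein of dendrites, fell after PT by -0.51 ± 0.0345 and -0.80 ± 0.0345. SYT1 fell by -0.49 ± 0.0356 and -0.39 ± 0.0356, the latter -0.079 and short of the threshold with unadjusted median centring. TUBB3, a neuronal tubulin, rose after PT by 0.32 ± 0.0326 and 0.26 ± 0.0326. With Si306 TUBB3 fell by -0.53 ± 0.0326 and -0.28 ± 0.0326, which turned to 0.61 and 0.45 with unadjusted median centring. SYT1 rose by 0.20 ± 0.0356 and 0.35 ± 0.0356 with Si306, and MAP2 was 0.098 ± 0.0345 and -0.071 ± 0.0345. Of 6 microglia and macrophage genes 3, 5, 3 and 3 were higher and 0, 0, 1 and 0 lower (with median centring 4, 3, 4 and 4 higher and 1, 0, 2 and 1 lower), while the defining PTPRC, AIF1, CX3CR1 and TMEM119 were at background on every array. CD68, a lysosomal protein, rose by 0.55 ± 0.0451 (1 array), 0.51, 0.80 and 0.71 (± 0.0319). CSF1R, a receptor of macrophages, rose after PT by 0.39 ± 0.0368 and 0.41 ± 0.0368 and was -0.44 ± 0.0368 in U87 Si306 + 2 Gy, where unadjusted median centring gave 0.36. Of 9 endothelial and pericyte genes 5, 4, 5 and 4 were higher and 0, 1, 1 and 0 lower, which median centring changed to 3, 2, 4 and 4 higher and 6, 4, 4 and 4 lower. PECAM1, an adhesion molecule of endothelium, was at background on slide 1 and rose on slide 2 by 0.28 ± 0.0319 at either dose with Si306. The part of these genes in the changes of the 10 markers was not tested.

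**Figure D5:**
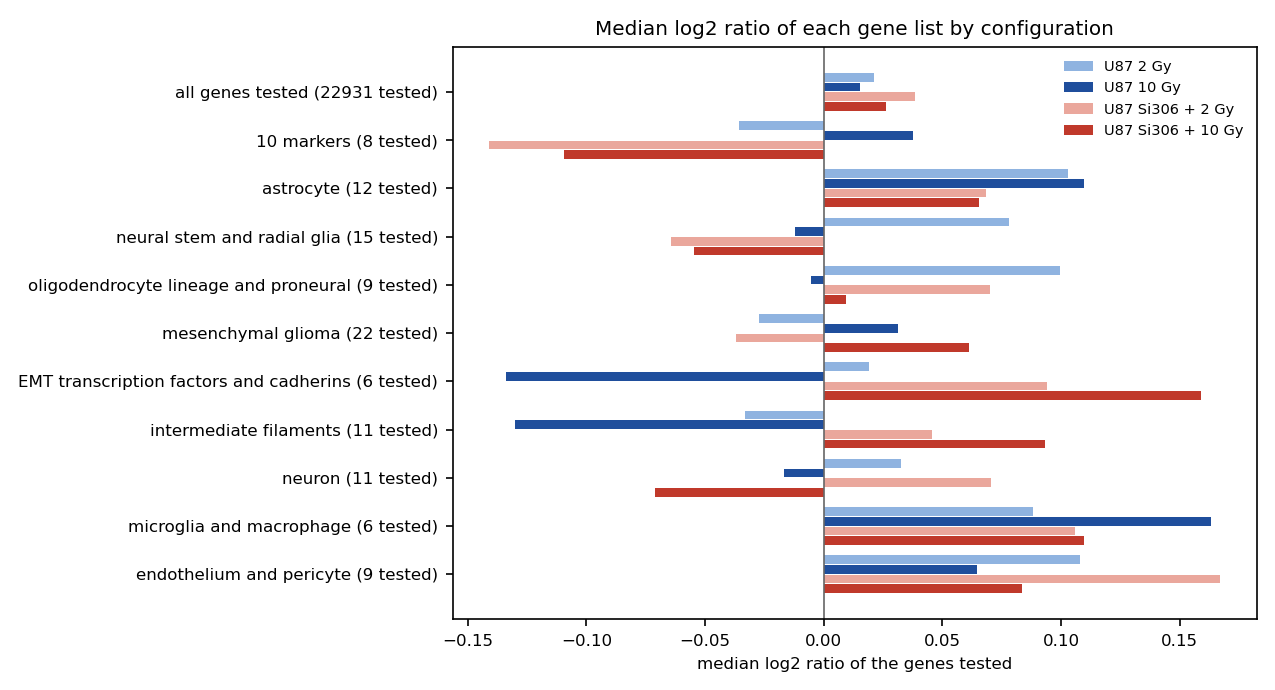
Median log2 ratio of the tested genes of each list in the 4 configurations (bars, from 0), with all genes and the tested markers for comparison. All medians lie between -0.15 and 0.17; with median centring that of the mesenchymal list moves to 0.67, 0.54, 1.00 and 0.70 in the 4 configurations, and all genes to 0.27, 0.22, 0.43 and 0.26.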

How the data were processed

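Each sample was a scan of a 2-colour Agilent array of 45015 spots. The deposited scanner tables, unit other because of their decimal commas, hold the mean intensity of each spot and dye, local background and flags, made by the authors with Agilent Feature Extraction 9.5.3.1. The deposited series matrix holds log10 ratios of that software, which the authors had corrected for background and dye, and it matched the scanner tables to 0.005. The authors' own lists came from GeneSpring with a limit of 2-fold.

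Here spots with an outlier flag (feature or local background) were left out, backgrounds were subtracted by normexp (offset 50), and dyes were balanced by loess within each scan (limma 3.58.1, R 4.3.3). Probes were averaged over spots and kept if Cy3 or Cy5 was well above background on both arrays of at least 1 configuration, which left 30418 probes. The brightest kept probe stood for a gene (22932 tested). Scans of an array were averaged, which gave 8 arrays, 2 per configuration, and the 2 scans whose label and array differed were left out. A limma fit over the 4 configurations with moderated variances (4 residual and 6.55 prior degrees of freedom) gave each mean and both differences between doses, with Benjamini-Hochberg adjustment over all genes. Levels were balanced between arrays with limma's Aquantile method. A fold between slides is given as at least its value where the probe was at background on 1 of them. The steps were tested on simulated data. Members and lists were chosen with earlier results of these data known. The alternatives were other background, dye, filter, probe and scan choices, a GC curve, replicate and scan blocks, and each array left out in turn.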

Additional observations from a re-analysis of the deposited data

Results flagged for a closer look

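The effect of adding Si306 differed between 10 Gy and 2 Gy for 5 of the 8 tested markers by the contrast between the doses in the limma fit, which used 4 arrays of 1 slide. Of all genes 22.6% differed, and CHI3L1 and OLIG2 were at background on these arrays. The log2 difference was 0.3225 for NES (0.30 to 0.34 within the scans 1, 2 and 3 of that slide), -0.3224 for VIM (-0.41 to -0.29), 0.3607 for GFAP (0.33 to 0.38), -0.4161 for SOX9 (-0.46 to -0.35) and 0.2566 for TNC (0.21 to 0.30). The second VIM probe, A_23_P161190, gave -0.14 and did not pass. NES and SOX9 lay on opposite sides of 0 at the doses on all 4 arrays, while VIM and TNC lay under 0 on all 4 and GFAP over 0. With median centring, unadjusted, all 5 lay over 0 in both configurations, the difference of TNC was -0.058 and that of NES 0.060. The assignment of the dyes, the slide and the order of scans are shared by both doses, but the balance of the dyes was not. With median centring the arrays of the lower dose with Si306 had a median of 0.43 over all genes, against 0.26 for the higher dose. The part of this gap in the 5 differences was not tested. Each dose also had its own positions on the slide, so position and dose cannot be told apart.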

How the results depend on the processing

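Leaving out 1 array assumes that the lone array left varies like the other groups. Over 26 alternatives the count of markers past the threshold ran from 4 to 7 in U87 2 Gy, U87 10 Gy and U87 Si306 + 2 Gy each, from 4 to 8 in U87 Si306 + 10 Gy, from 0 to 2 for the dose after PT and from 3 to 7 for the dose with Si306. Of the marker values 932 kept direction and side of the threshold, 13 newly passed, 32 no longer passed, 22 moved across 0 without a call on either side and 15 changed sign with a call on at least 1 side. The scan block, the single scans and the separate fits of the slides were chosen after seeing the data.

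The dose after PT gave 2 markers with the log ratio of the scanner software, 2 with that of the series matrix, 2 with the replicate block, 2 with the scan of the slide as a block, 0 with scan 1 alone and 0 with every scan by its label. In that limma fit 0 of all genes passed, and 338 had an unadjusted p under 0.05. The dose with Si306 gave 3 with every scan by its label. The replicate numbers of the labels do not pair scans, since over 30 pairs of labels r was between -0.0856 and 0.0892.

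Median centring gave 7 markers in U87 2 Gy. Of all genes 19687 had an unadjusted p under 0.05 there (limma), against 14029 after the curve. Before allowing for the median of all genes, it changed the sign of SOX9 (0.2554), TNC (0.2992) and VIM (0.443) in U87 2 Gy. In U87 10 Gy it changed that of OLIG2 (-0.1759), SOX9 (0.1318), VIM (0.3119), CDH2 (0.0868) and PRPH (0.0171). In U87 Si306 + 2 Gy these were NES (0.6182), SOX2 (0.1373), TNC (0.4247), VIM (1.3244), TUBB3 (0.6076) and CSF1R (0.3603). In U87 Si306 + 10 Gy they were SOX2 (0.2013), SOX9 (0.4186), TNC (0.3666), VIM (0.5358) and BMI1 (0.392), and for the dose with Si306 TNC (-0.058). It also changed the sign of GFAP in U87 2 Gy (-0.0508) and of CHI3L1 (-0.0833) and NES (-0.0153) for the dose after PT, none of which passed either way, and in at least 1 further comparison that of ALDH1L1, BMI1, CDH2, CEBPD, GJA1, HES1, PLAUR, PRPH, SNAI2, TUBB3 and TWIST1. The cause was not tested. SOX9 and VIM in U87 Si306 + 2 Gy were the only markers to reach 2-fold and pass in any alternative, both with median centring.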

Other observations

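The slides also differed in which lineage genes were detected. CDH2 (N-cadherin), TWIST2, ELAVL4 and SNAP25 were well above background on slide 1 and not on slide 2, as both CHI3L1 probes were, while POU3F2, a neural transcription factor, SYNM (synemin) and PECAM1 were so on slide 2 and not on slide 1. AQP4, NR2E1, MOBP, MOG, CDH1, DES, NEFH and SYP were at background on both. Among the named genes HES1 gave the largest difference between the doses of PT, from 0.30 to -0.57 in the mean, with the same sign on both arrays of each dose. With every scan by its label these means were 0.0067 and -0.29.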
